A study of Mus musculus with 12 samples.

Results

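The genes described here are 5 products of neutrophils, the most numerous white blood cells of the early response to tissue injury: S100a8, S100a9, Lcn2, Ngp and Camp. They were chosen by gene symbol in the platform annotation, out of 19057 genes named on the array, and each had a single probe. S100a8 and S100a9 entered because of their own signals in these hearts, lower at 72hr and higher at 1wk after induction, so their differences at those times are given as a description without a test. Lcn2, Ngp and Camp were named by function, with earlier results of these data known. Of the 5 genes, 3 (S100a8, S100a9 and Lcn2) passed the filter on dim probes, which asks for a detection p below 0.01 throughout at least 1 group, and 10169 genes passed in all.

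S100A8 and S100A9 are small calcium-binding proteins that pair to form calprotectin, which makes up much of the soluble protein of the neutrophil cytosol. When released they bind zinc and manganese and act on Toll-like receptor 4. Lipocalin 2, the product of Lcn2, is stored in the specific granules of neutrophils and withholds iron from bacteria by binding their siderophores, and it is also made by epithelial and other non-immune cells during inflammation. Ngp (neutrophilic granule protein) and Camp (the cathelicidin antimicrobial peptide precursor) are loaded into the specific granules while neutrophils mature in the bone marrow, and the granule transcripts are largely lost in the mature circulating cell, which keeps S100a8 and S100a9 transcripts.

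RNA from 12 whole mouse hearts was measured on Illumina bead arrays, 1 array per heart, and all hearts carry the strain label FVB. The control group was 3 adult hearts labelled untreated MCM (a tamoxifen-activated Cre recombinase), and 2 adult wildtype hearts and 1 wildtype heart of embryonic day 14 (E14) were also measured. The induced hearts came from EpA960/MCM bitransgenic animals aged 2 to 4 months, in which tamoxifen at 20 mg/kg, injected once or daily for 5 days, switches on RNA with expanded CUG repeats in the heart as a model of myotonic dystrophy type 1 (DM1). There were 3 such hearts at 72hr and 3 at 1wk, and the labels do not say which injection schedule lies behind each time. The descriptions of the 1wk hearts alone end in the letter R, and its meaning is not given, so whatever it marks cannot be told apart from the 1wk group. Because the MCM hearts are labelled untreated and are not labelled as carrying EpA960, the effects of tamoxifen, of the transgene and of the CUG repeats cannot be told apart here. The labels do not say whether hearts were perfused, and in whole hearts a lower count of neutrophils and less RNA per neutrophil cannot be told apart.

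The promoters of the 3 genes with a detectable signal are shown because S100a8 and S100a9 moved together in the hearts while Lcn2 did so only in part. The 250 bases before the start of each gene come from RefSeq (GRCm38.p6), and S100a8 (chr3:90668821-90669070, plus strand) and S100a9 (chr3:90695722-90695971, minus strand) are neighbouring genes on chromosome 3, while Lcn2 (chr2:32387740-32387989, minus strand) lies on chromosome 2. Sequences run 5′ to 3′ towards the gene, and capitals mark matches, on either strand, to 3 motifs. These were TATAAA (the core element bound by TBP), TTNNGNAA (C/EBP, the factor family that drives granulocyte genes) and GAGGAA (PU.1, a myeloid factor).
S100a8: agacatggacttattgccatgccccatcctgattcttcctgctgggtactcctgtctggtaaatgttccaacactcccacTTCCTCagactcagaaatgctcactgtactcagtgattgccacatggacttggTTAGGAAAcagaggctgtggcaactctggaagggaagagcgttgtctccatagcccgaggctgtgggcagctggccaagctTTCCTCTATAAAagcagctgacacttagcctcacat
S100a9: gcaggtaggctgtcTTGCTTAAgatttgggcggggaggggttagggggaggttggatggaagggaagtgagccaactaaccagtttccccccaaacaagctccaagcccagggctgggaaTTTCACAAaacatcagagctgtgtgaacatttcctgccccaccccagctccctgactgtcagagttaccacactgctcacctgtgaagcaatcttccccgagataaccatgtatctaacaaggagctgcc
Lcn2: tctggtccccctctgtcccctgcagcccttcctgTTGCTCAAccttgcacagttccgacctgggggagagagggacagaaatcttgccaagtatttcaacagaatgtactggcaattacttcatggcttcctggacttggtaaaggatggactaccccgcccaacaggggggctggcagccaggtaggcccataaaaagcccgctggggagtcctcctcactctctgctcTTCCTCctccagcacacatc
S100a8 held 1 TBP element at bases -30 to -25 before the start, adjoined by 1 of its 2 PU.1 matches at -36 to -31, and 1 C/EBP match. S100a9 held 2 C/EBP matches, at -130 to -123 and at -236 to -229. Lcn2 held 1 C/EBP match and 1 PU.1 match. Of the 2 undetected genes, whose promoters are not printed, Ngp held 3 C/EBP matches and Camp no match to any of the motifs. Among 32851 mouse promoters cut to the same length, 36.8% held the C/EBP letters, 23.3% the PU.1 letters and 12.4% the TBP letters, so the matches are a description of the sequence and not of binding.

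S100a8 was detected on all 12 arrays. Its log2 signals were 10.14, 10.22 and 9.91 in MCM hearts, 8.36, 9.24 and 8.68 at 72hr, and 11.54, 11.75 and 11.33 at 1wk. The 3 groups did not overlap: every 72hr heart lay below and every 1wk heart above all MCM hearts. The 2 adult wildtype hearts stood at 9.51 and 9.61, between the 72hr and the MCM hearts. The mean difference from MCM was -1.33 ± 0.19 (log2, standard error) at 72hr, 2.52-fold lower, and 1.45 ± 0.19 at 1wk, 2.73-fold higher, and from 72hr to 1wk the signal differed 6.87-fold. Set against adult wildtype in place of MCM, the 72hr difference was smaller, at -0.80, and the 1wk difference larger, at 1.98.

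S100a9, the partner of S100a8 in calprotectin, followed the same course. Its log2 signals were 8.74, 8.87 and 8.57 in MCM hearts, 7.26, 7.73 and 7.49 at 72hr, and 9.93, 10.10 and 9.78 at 1wk. Again no 72hr heart reached the MCM range and no 1wk heart fell to it, and the adult wildtype hearts, at 8.73 and 8.45, lay beside MCM. The difference from MCM was -1.24 ± 0.16 at 72hr, 2.35-fold lower, and 1.21 ± 0.16 at 1wk, 2.31-fold higher, and 72hr and 1wk differed 5.44-fold. Against adult wildtype the differences were -1.10 and 1.34. In both genes replicate 2 was the highest heart of the 72hr group, and without it the 72hr differences from MCM were -1.57 for S100a8 and -1.35 for S100a9. Over the 12 hearts the log2 signals of the pair correlated at Pearson r = 0.956, a description of arrays that share their group means.

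As background for the counts that follow, few of all genes were called at 72hr and many at 1wk. With Benjamini-Hochberg adjusted p below 0.05 in limma as the call, 9 of 10169 genes (0.0885%) were lower and 18 (0.177%) higher at 72hr than in MCM, and 761 had an unadjusted p below 0.05. S100a8 and S100a9 were selected on these contrasts, so no call is read for them. At 1wk 27.2% of genes were called higher and 26.6% lower than in MCM.

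**Figure D1:**
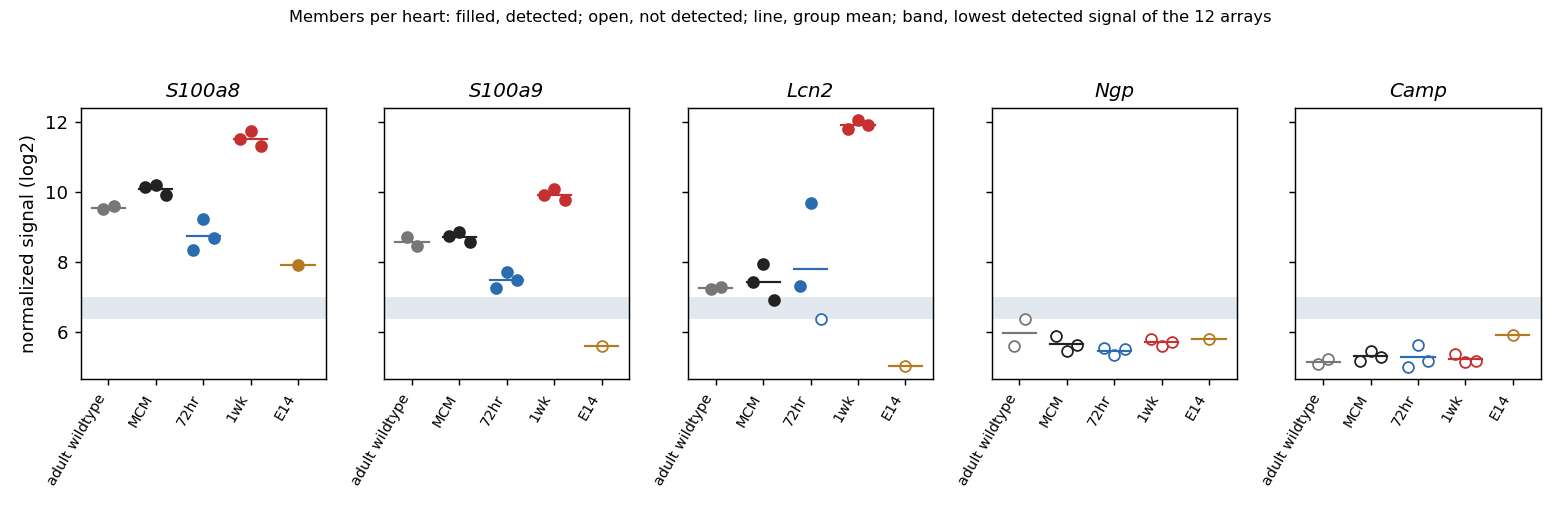
Normalized log2 signal (vertical axis) of each of the 5 genes in each heart by group (horizontal axis); filled points passed detection, open points did not, short lines are group means and the grey band spans the lowest detected signal of the 12 arrays (6.39 to 6.98). S100a8 and S100a9 step down at 72hr and up at 1wk, Lcn2 is high at 1wk and in 1 heart at 72hr, and Ngp and Camp lie under the band in every heart.

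Lcn2 rose at 1wk, while its 72hr hearts overlapped with MCM hearts. Its log2 signals were 7.44, 7.96 and 6.93 in MCM hearts and 7.31, 9.68 and 6.38 at 72hr, where replicate 3 did not pass detection. The 72hr hearts lay on both sides of the MCM hearts, with replicate 2 far above them. The difference was 0.35 ± 0.61 (limma adjusted p = 0.891), and without replicate 2 it was -0.60 (limma adjusted p = 0.816). At 1wk the signals were 11.81, 12.07 and 11.93, all above every other heart of the study. Lcn2 rose 22.5-fold over MCM (log2 difference 4.49 ± 0.61, limma adjusted p = 0.000102) and 17.7-fold from 72hr to 1wk (4.15 ± 0.61, limma adjusted p = 0.000256), a comparison in which 23.1% of genes were called higher. Against the adult wildtype hearts, at 7.23 and 7.30, the 1wk difference was 4.67 (25.4-fold, limma adjusted p = 0.000234).

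Ngp and Camp, the products of maturing neutrophils, were detected on none of the 12 arrays. Raw probe signals ranged from 99.2 to 176.6 for Ngp and from 73.3 to 186.5 for Camp. For both genes the highest raw signal was that of the E14 heart, whose array had the highest median raw signal of all (158.7). After normalization Ngp was highest in adult wildtype replicate 2 (log2 6.37, against 5.81 at E14), and Camp was still highest at E14 (5.91). At 1wk the log2 signals of Ngp lay between 5.60 and 5.79 and those of Camp between 5.15 and 5.37, inside or near their MCM ranges of 5.45 to 5.89 and 5.16 to 5.47. No fold is given for signals not well above background, and whether these transcripts changed below the detection limit was not detectable.

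The adult and embryonic controls give the level of the pair without induction. Between adult wildtype and MCM hearts 5.74% of genes were called in either direction, and Lcn2 was not (-0.17 ± 0.68, limma adjusted p = 0.924). The MCM hearts also served to choose S100a8 and S100a9. The differences of the pair, -0.53 ± 0.22 and -0.13 ± 0.18, are therefore a description without a test. For S100a8 both wildtype hearts lay under all MCM hearts. The E14 group is 1 heart, so its p-values assume that it varies like the hearts of the other groups, whose spread they use. In that heart S100a8 had 7.91, 3.14-fold below adult wildtype (log2 difference -1.65 ± 0.29, limma adjusted p = 0.000439), where 27.0% of genes were called lower. S100a9 stood at 5.60 there, not detected, and was at least 4.62-fold lower (limma adjusted p = 9.6e-07). Lcn2 was not detected either, at 5.03, at least 1.85-fold under adult wildtype (limma adjusted p = 0.0531). For S100a8 the groups thus ordered, by mean log2 signal, as E14 7.91, 72hr 8.76, adult wildtype 9.56, MCM 10.09 and 1wk 11.54. For S100a9 the order was the same, with 5.60, 7.49, 8.59, 8.73 and 9.94, while Lcn2 ran from E14 (5.03) over adult wildtype (7.27), MCM (7.44) and 72hr (7.79) to 1wk (11.94). Adult wildtype and MCM are neighbours in all 3 orders. For Lcn2 neither their difference nor that of MCM and 72hr passed.

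To ask whether other neutrophil genes shared the course, 36 genes in 3 lists were followed: products of the specific and gelatinase granules, products of the primary granules and precursors, and surface receptors and adhesion molecules. A probe existed for 33 of them, and 18 of these were detected on no array. Without a filter on dim probes, none of the 33 was called lower or higher at 72hr (limma, with 6 at an unadjusted p below 0.05), and their median log2 difference was 0.02 against -0.01 over all 19057 genes. At 1wk 15 of the 33 were called higher and none lower, where 15.3% of all genes were called higher, and the median was 0.31 against 0.00. Of these 15, Cxcr2 was detected on 1 array and Itgam, Itgb2, Prtn3 and Ltf on none. From 72hr to 1wk 13 were called higher and none lower, with a median of 0.41. No gene of these lists was called lower at 72hr, but none of them was detected in all MCM hearts. A fall from signals so near background could hardly be seen, so whether they shared the dip cannot be decided here. A higher signal at 1wk was called in 15 of the 33, but not in Mmp8, Mpo, Elane or Csf3r. Which cells these signals came from was not tested.

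After the filter 11 of the 33 genes were left, 8 of them through the 1wk hearts alone, and none was detected in all MCM hearts, so the filter itself favours genes high at 1wk. Among these 11, at 72hr none was called (limma). An unadjusted p below 0.05 was found in 3, of which Retnlg was lower (-1.34) and Cd177 (1.01) and Hp (0.64) were higher. Without 72hr replicate 2 in the fit 1 was called lower, Retnlg, and 1 higher, Cd177. At 1wk 10 were called higher, and 9 to 11 were so when any 1 heart was left out. Hearts did not overlap with MCM in 10 of the 11 at 1wk, all above, where 32.8% of all genes had every 1wk heart above every MCM heart. At 72hr they lay wholly below MCM in 1 of the 11, against 5.69% of all genes. The same gene, Retnlg, alone of the 11 showed both, as did 0.6% of all genes (61 of 10169). Those 61 were not only neutrophil genes. They included Mertk, of the macrophage and monocyte list followed below, with log2 differences of -0.41 at 72hr (not called) and 0.91 at 1wk.

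Retnlg, which encodes a resistin-like secreted protein of bone marrow and neutrophils, was the gene of these lists closest to the course of the pair. Its log2 signals were 6.84, 7.22 and 6.38 in MCM hearts, with replicate 3 not detected, then 5.14, 5.84 and 5.45 at 72hr, all undetected, and 9.91, 10.29 and 9.60 at 1wk. The 72hr difference of -1.34 ± 0.25 missed the threshold (limma adjusted p = 0.0657), and it passed without 72hr replicate 2 (-1.51, limma adjusted p = 0.0108) and without MCM replicate 3 (-1.55, limma adjusted p = 0.0474). The 1wk rise was 8.69-fold over MCM (3.12 ± 0.25, limma adjusted p = 3.55e-06), in a gene that passed the filter through the 1wk hearts alone. The adult wildtype hearts, at 5.73 and 6.06 and undetected, overlapped with the 72hr hearts, and against them the 72hr difference was -0.42 (limma adjusted p = 0.403). For S100a8 the wildtype hearts also lay below MCM, with a smaller 72hr difference against them (-0.80), while those of S100a9 lay beside MCM.

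The other granule genes past the filter rose at 1wk and none was called at 72hr. Slpi, an inhibitor of neutrophil elastase, rose at least 1.61-fold (limma adjusted p = 3.09e-07) and was detected in the 1wk hearts alone. Hp, which encodes haptoglobin, rose 4.86-fold (limma adjusted p = 3.39e-05) and Mmp9, the gelatinase of neutrophil granules, at least 2.51-fold (limma adjusted p = 1.84e-05). Cd177, a neutrophil surface glycoprotein also held in specific granules, rose at least 1.79-fold (limma adjusted p = 9.67e-06). Slpi and Cd177 passed the filter through the 1wk hearts alone, so the filter favours a higher value there. Hp and Mmp9 passed it through the adult wildtype hearts as well. At 72hr Cd177 lay on the other side from the pair, at 6.82, 5.87 and 6.52 against 5.20 to 5.53 in MCM hearts, with none of these 6 signals detected (1.01 ± 0.21, limma adjusted p = 0.0997). Ltf (lactoferrin) and Mmp8 (neutrophil collagenase), both of the specific granules, were detected on no array.

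Of the 8 primary granule and precursor genes none passed the filter. Of these, 7 were detected on no array, among them Mpo (myeloperoxidase) and Elane (neutrophil elastase), and Gfi1, a transcription factor of granulocyte precursors, was detected in adult wildtype replicate 2 alone, at 6.79. Their summed linear signal was 335 to 375 in MCM hearts and 360 to 371 at 1wk. Over the same hearts the specific and gelatinase granule list went from 647 to 711 in MCM and 656 to 769 at 72hr up to 2149 to 2887 at 1wk.

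Of the surface genes 6 passed the filter, 5 of them through the 1wk hearts alone, and 5 were called higher at 1wk. Clec4d, a C-type lectin receptor of myeloid cells, had log2 signals of 5.79, 5.74 and 5.33 in MCM hearts and 10.74, 11.19 and 10.69 at 1wk, at least 16.5-fold higher (limma adjusted p = 3.51e-06). Fpr2, a formyl peptide receptor that senses bacterial and mitochondrial peptides, rose at least 9.66-fold (limma adjusted p = 1.26e-05) and Il1r2, the decoy receptor for interleukin 1, at least 3.57-fold (limma adjusted p = 1.51e-08). Selplg, the selectin ligand used for rolling on vessel walls, rose 2.25-fold (limma adjusted p = 0.0178), a call lost without MCM replicate 1 (limma adjusted p = 0.0614). Csf3r, the receptor for granulocyte colony-stimulating factor, lay 0.74 ± 0.32 above MCM at 1wk and did not pass (limma adjusted p = 0.0659). It passed without 72hr replicate 2 (0.74, limma adjusted p = 0.0182) and without MCM replicate 3 (1.02, limma adjusted p = 0.0238). Cxcr2, the chemokine receptor that guides neutrophils, was detected in 1 heart, 1wk replicate 2, at 6.68, and no probe named Ly6g was found on the array. Without the filter Itgam and Itgb2, which encode the chains of the Mac-1 integrin, were called higher by 1.18 and 1.12 (limma adjusted p = 1.01e-05 and 4.85e-05) although detected on no array.

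**Figure D2:**
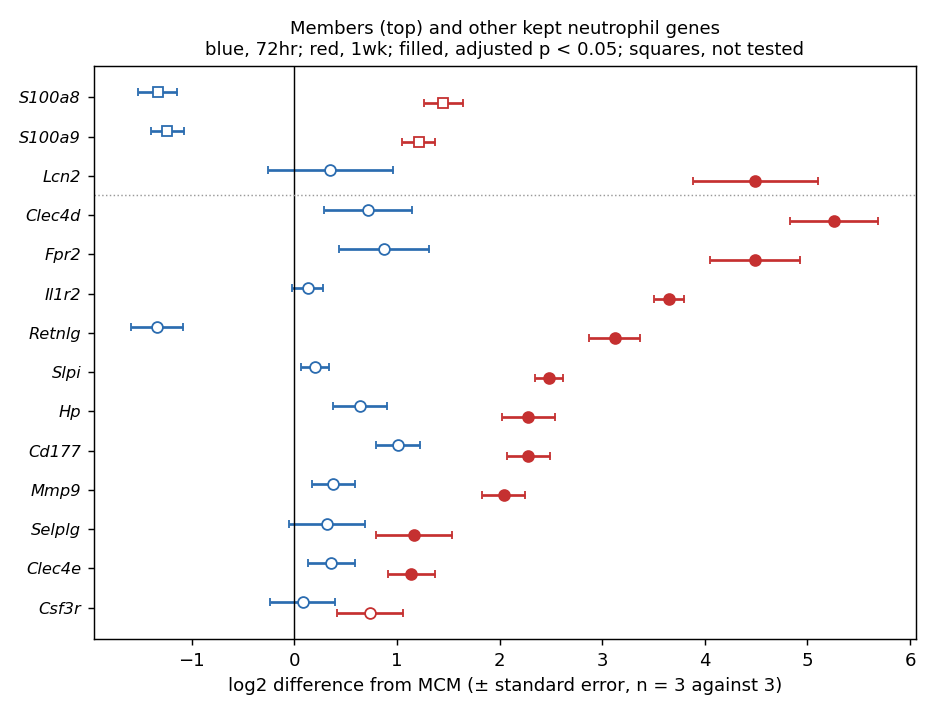
Log2 difference from MCM (horizontal axis, ± standard error, 3 hearts against 3) at 72hr in blue and at 1wk in red for S100a8, S100a9 and Lcn2 (above the dotted line) and the 11 other neutrophil genes that passed the filter; filled symbols have a limma adjusted p below 0.05 and squares were not tested. At 72hr only S100a8, S100a9 and Retnlg lie left of 0, and at 1wk all 14 lie right of it.

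One heart at 72hr stood apart in these genes. In replicate 2 the signals of Clec4d (7.65), Fpr2 (7.89), Selplg (8.40) and Clec4e (6.92) passed detection, while in replicates 1 and 3 they did not, and it was the heart with Lcn2 at 9.68. The summed linear signal of the macrophage and monocyte list was 17393 there, against 8542 and 7152 in the other 2 hearts and 7972 to 8725 in MCM hearts. S100a8, S100a9 and Retnlg in this heart still lay below all MCM hearts. The background differed between arrays: the 1st percentile of raw signal was 54.4 to 59.1 on arrays of induced hearts and 63.0 to 76.18 on the others. Induction and a difference in array processing cannot be told apart here. The part of this background in the 72hr results was not tested. Without background correction S100a8 and S100a9 differed from MCM by -1.19 and -0.96 at 72hr.

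**Figure D3:**
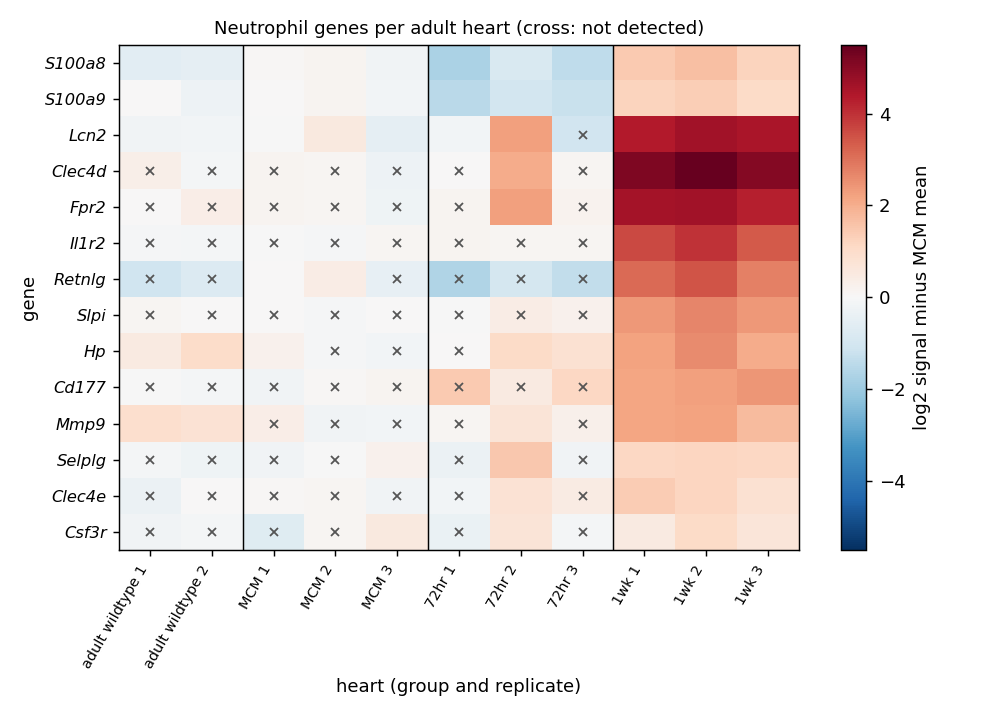
Difference of each adult heart (columns, by group and replicate) from the MCM mean, in log2 units by colour, for the 3 detected genes of the 5 and the 11 other neutrophil genes (rows); a cross marks a signal that did not pass detection. The 3 hearts at 72hr are blue in the rows of S100a8, S100a9 and Retnlg, 72hr replicate 2 is red in Lcn2, Clec4d and Fpr2, and the 1wk hearts are red throughout.

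Of 10 genes that encode attractants and growth factors of neutrophils 3 passed the filter, 1 of them (Cxcl2) through the 1wk hearts alone. All 3 were called higher at 1wk, where 27.2% of all genes were, and none at 72hr. Cxcl2, a neutrophil chemokine, rose at least 1.99-fold (limma adjusted p = 4.63e-08), Il1b, the inflammatory cytokine interleukin 1 beta, at least 2.09-fold (limma adjusted p = 0.000929) and Cxcl1, another such chemokine, 1.72-fold (limma adjusted p = 0.0446). The Cxcl1 call was lost in 8 of the fits that left out 1 heart (limma adjusted p = 0.0529 to 0.161) and without the filter (0.0547). Against adult wildtype hearts the 1wk differences of Cxcl1 (0.35, limma adjusted p = 0.409) and Il1b (0.70, limma adjusted p = 0.193) did not pass. Csf3, the granulocyte growth factor, was detected on no array.

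Among receptors and partners of S100A8 and S100A9, 9 of 12 genes passed the filter, 5 were called higher and 1 lower at 1wk, against 27.2% and 26.6% of all genes, and none was called at 72hr. Myd88, the adaptor of Toll-like receptors, rose 2.30-fold (limma adjusted p = 0.000342), and Ncf4 and Cyba, subunits of the phagocyte oxidase, rose 5.72-fold and 1.86-fold (limma adjusted p = 0.000651 and 0.000446). Bsg (basigin), a surface receptor reported for S100A9, was at least 1.24-fold lower (limma adjusted p = 0.000341). Bsg was detected in no 1wk heart and passed the filter through the MCM hearts alone, so the filter favours a lower value at 1wk. Of 14 other S100 genes, which encode calcium-binding proteins of the same family, 8 passed the filter and 4 were called higher at 1wk, against 27.2% of all genes, and none lower. The 4 were S100a4 at least 5.89-fold, S100a11 5.12-fold, S100a10 3.54-fold and S100a6 2.44-fold. S100a4 passed the filter through the 1wk hearts alone, and the other 3 were detected in all MCM hearts. None of the 8 was called at 72hr.

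Markers of other cells moved at 1wk beside the neutrophil genes, and their part in the 1wk results was not tested. The counts that follow stand against 27.2% of all genes called higher and 26.6% called lower. Of 9 macrophage and monocyte genes that passed the filter 8 were called higher, with Lyz2 (lysozyme) at 4.03-fold and C1qa at 2.39-fold, and the summed list went from 7972 to 8725 in MCM up to 20248 to 24100. Platelet genes were called higher in 4 of 5, among them Ppbp (7.39-fold), Pf4 (5.96-fold) and, on signals that passed detection in no adult heart, Treml1. Gp9, the remaining call (limma adjusted p = 0.0213), was detected in no MCM heart. The Gp9 call was lost in 4 of the fits that left out 1 heart (limma adjusted p = 0.0502 to 0.0868). Summed platelet signals were 1024 to 1165 in MCM, 1240 to 1846 at 72hr and 4369 to 7273 at 1wk, and 2280 to 2291 in adult wildtype hearts. Ppbp stood at 9.68 and 9.71 in the adult wildtype hearts, and against them the 1wk differences of Ppbp (0.14, limma adjusted p = 0.845) and Treml1 (0.11, limma adjusted p = 0.683) did not pass, while that of Pf4 did (2.05, limma adjusted p = 5.88e-05). Erythroid genes were called higher in 5 of 6, with Alas2, of heme synthesis, at a log2 difference of 3.00. Their summed signal was 81497 to 114672 in MCM, 72382 to 136287 at 72hr and 176489 to 185788 at 1wk, and 193634 to 200112 in adult wildtype hearts. Against these hearts the 1wk difference of Alas2 was 0.80 (limma adjusted p = 0.0579). Heart muscle genes were called lower in 4 of 7, with Myh6 (alpha myosin) 2.00-fold and Tnni3 (troponin I) 1.52-fold down. Ttn was among the 4 (log2 difference -1.13), but its least changed kept probe had -0.12 (limma adjusted p = 0.556). None of the macrophage, platelet, erythroid and heart muscle genes was called at 72hr.

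Markers of further cell types were followed in the same way. Mast cell, eosinophil and basophil genes had 1 of 8 past the filter and none called at 1wk. The epithelial list had 4 of 9 past it, with summed signals of 1011 to 1212 in MCM, 1027 to 1378 at 72hr and 879 to 942 at 1wk. Its Krt10, a keratin, was detected on all 12 arrays and called lower at 1wk (1.40-fold, limma adjusted p = 0.0119). The T and B cell genes had 3 of 9, kept through the E14 heart alone, of which Cd3e was called higher at 1wk on signals that passed detection in no adult heart. Xist, the RNA that coats an inactive X, was high (10.81 to 11.59) in the E14 heart and in replicates 1 and 2 of both the MCM and the 72hr group, and low (4.94 to 5.07) in the other 7, including all 1wk hearts. Its part in the differences between groups was not tested.

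Finally, genes were ranked by the likeness of their course to the mean of S100a8 and S100a9, each centred on its mean over the 12 hearts. The highest Pearson correlations were those of Rabgef1 (r = 0.955), Dpp8 (0.955), Rnf130 (0.933), Inpp5k (0.932) and H2-Q5 (0.923). Rabgef1 encodes a regulator of endocytic trafficking, Dpp8 a cytosolic dipeptidyl peptidase, Inpp5k a phosphoinositide phosphatase and H2-Q5 a class I histocompatibility antigen. At 72hr their log2 differences from MCM lay between -0.29 and -0.05, none called, against -1.33 and -1.24 for the pair. At 1wk 4 of them lay between 0.21 and 0.64 above MCM and H2-Q5 1.32 above, against 1.45 and 1.21 for the pair. In Rabgef1, Dpp8 and Inpp5k every 72hr heart lay below and every 1wk heart above all MCM hearts. The 72hr hearts of Rnf130 and H2-Q5 overlapped with MCM. In all 5 the mean was lowest at E14, next lowest at 72hr and highest at 1wk, and in Rabgef1 and Rnf130 adult wildtype lay above MCM, unlike in the pair. Retnlg ranked 10 of 10167 (r = 0.916) and Lcn2 ranked 147 (r = 0.842). The correlations describe 12 arrays in 5 groups, and the single E14 heart, lowest in all 5 most alike genes, carries part of each.

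**Figure D4:**
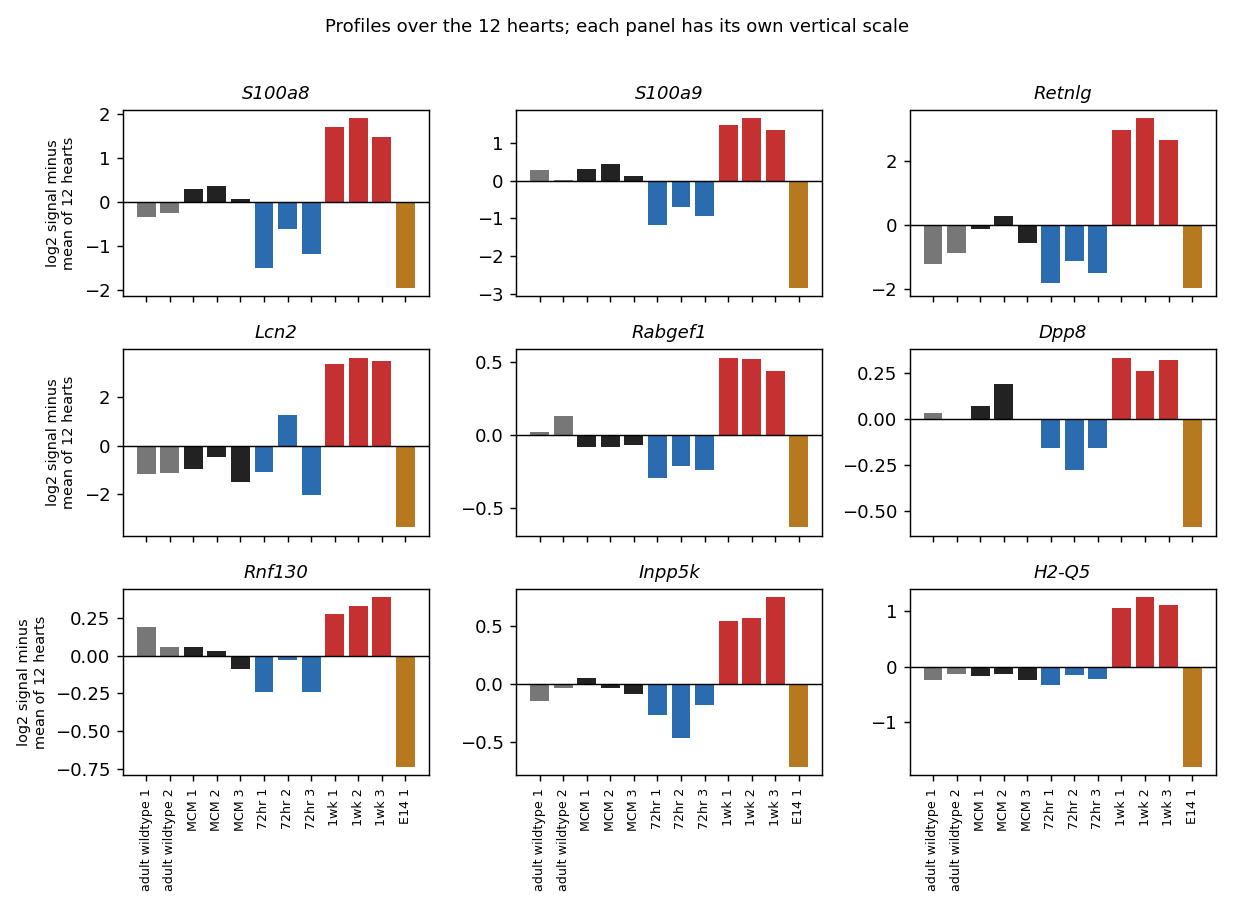
Log2 signal of each heart minus the gene's mean over the 12 hearts (vertical axis, with its own scale in each panel) for S100a8, S100a9, Retnlg, Lcn2 and the 5 genes with the highest correlation to the pair; bars are single hearts, coloured by group. Lcn2 differs from the pair in 72hr replicate 2, and in the 5 most alike genes the E14 heart is lowest and the 1wk mean highest.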

How the data were processed

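Per the file headers, each array file holds a mean bead signal per probe, a linear intensity without normalization or background subtraction, a bead standard deviation, a bead count and a detection score, a fraction from 0 to 1, as deposited. The authors' deposited value table holds 1 normalized intensity per probe. Mapping the quantiles of each array (100 quantiles) onto those of adult wildtype replicate 1 gave its values for 100% of 45281 probes within 0.001, so its scale is linear and uncentred. Column medians were 129.54 to 129.76. That match named the probes through the platform annotation: 34885 had 1 symbol, 18 several and 10378 none, and 78 named probes had an identifier not found in the RefSeq table, and they kept the annotation's symbol.

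Here, 1 minus the score served as detection p. Signals were corrected with nec (limma 3.58.1, R 4.3.3, offset 16), quantile normalized and set on a log2 scale. A probe was kept if at least 1 group had detection p below 0.01 throughout, and the brightest kept probe stood for its gene. Groups were compared by limma (lmFit on group means, eBayes with trend) over all 12 arrays, with 7 residual degrees of freedom and Benjamini-Hochberg adjustment over 10169 genes. The E14 array was assumed to vary like the others. "At least" folds set the brighter mean against the higher of the dim signal and the lowest detected signal per array. The number of arrays limits the precision: between 14202 and 16774 probes were detected per array, the median probe had 41 or 42 beads, and arrays of a group correlated at 0.962 to 0.994 across genes. On simulated data with these genes the fit called 85 of 100 genes changed by 1 and 98 of 100 changed by 2 on the log2 scale. P-values measure the spread between hearts labelled as separate samples. Named genes were the 5 members, up to 4 called genes of each list at each time (largest differences), 10 genes listed by symbol, and the 5 most alike. The members, the 13 gene lists and the tests were chosen with earlier results of these data known. Alternatives tried were the background correction, the authors' value table, the detection filter, the probe per gene, array weights, the replicate number as a block, the control group and leaving out single hearts.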

Additional observations from a re-analysis of the deposited data

Results flagged for a closer look

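The pair moved in opposite directions at the 2 times. In S100a8 every 72hr heart lay below and every 1wk heart above every MCM heart, with a log2 difference between the times of 2.78, and in S100a9 likewise, with 2.44; these differences chose the genes and were not tested. The log2 difference from 72hr to 1wk passed in limma for Lcn2 (4.15), Hp (1.64) and Mmp9 (1.66), and for Clec4d (4.54) and Fpr2 (3.62), which passed the filter through the 1wk hearts alone. Clec4d, Fpr2 and Mmp9 were detected in 1 of the 3 hearts at 72hr. It also passed for Retnlg (4.46), Slpi (2.28), Cd177 (1.27) and Il1r2 (3.52), but these were detected in no 72hr heart and were kept through the 1wk hearts alone, so the fitted values set 1wk signals against background. As bounds, the 1wk signal was at least 8.39-fold (Retnlg), 1.57-fold (Slpi), 1.75-fold (Cd177) and 3.50-fold (Il1r2) above that at 72hr.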

How the results depend on the processing

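S100a8 and S100a9 stayed lower at 72hr and higher at 1wk under every alternative run. Leaving out single hearts gave -1.57 to -1.13 and 1.35 to 1.55 for S100a8, and -1.35 to -1.12 and 1.13 to 1.29 for S100a9. The 72hr difference became -1.70 (S100a8) and -1.44 (S100a9) with array weights, and -0.96 (no background correction) and -0.93 (the authors' deposited table) for S100a9. With adult wildtype as control S100a8 had -0.80 at 72hr and 1.98 at 1wk. Lcn2 at 72hr turned to -0.17 with array weights and ranged from -0.60, without 72hr replicate 2, to 1.05; at 1wk it ranged from 4.23 to 4.75, and from 3.43 to 5.10 against 72hr. Adult wildtype against MCM gave -0.57 for S100a8 with array weights and -0.62 to -0.47 without single hearts, again as a description. S100a9 there ranged from -0.27 to 0.01 and Lcn2 from -0.43 to 0.09. E14 against adult wildtype ranged from -1.70 to -1.60 for S100a8 and -3.14 to -2.86 for S100a9. For Lcn2 it passed with every kept probe tested (-2.24, limma adjusted p = 0.0491), with array weights (-2.24, limma adjusted p = 6.05e-05) and without 72hr replicate 2 (-2.23) or 3 (-2.26), over a range of -2.28 to -2.21.

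Of the neutrophil lists, 1 gene (Cd177) was called higher at 72hr with array weights and with adult wildtype as control, and 1 (Retnlg) lower with array weights and with the replicate number as a block. Leaving out single hearts gave 0 to 1 in each direction, with Retnlg lower also without MCM replicate 3. At 1wk 9 to 11 were higher and 0 lower, but 0 among genes detected on all 12 arrays, since none of the lists' genes is left there. With the adult wildtype control Hp and Mmp9 turned to -0.12 and -0.48 at 72hr, and Hba-a1 and Gp9 to -0.28 and -0.23 at 1wk. With array weights Clec4d, Selplg and Mmp9 turned to -0.02, -0.14 and -0.06 at 72hr. Without single hearts Selplg ranged from -0.25 to 0.65 and Csf3r from -0.25 to 0.35, with -0.23 without 72hr replicate 2. The cause of these changes was not tested.

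Same-numbered hearts correlated at -0.042 to 0.307 and matched best in 10 of 18 comparisons. These values do not settle whether the numbers pair the samples. In both the MCM and the 72hr group Xist was high in replicates 1 and 2 and low in replicate 3. With the replicate number as a block S100a8 had -1.33 and S100a9 -1.24 at 72hr, and all genes called lower there went from 9 to 13. With array weights 272 and 289 genes were called higher and lower at 72hr, against 18 and 9, and 5 and 5 among genes detected on all 12 arrays. Calls lower at 72hr ranged from 4 to 22 and higher from 16 to 32 without single hearts. A slide block was not run, since the files name no slide. S100a9 and Lcn2 have no value among genes detected on all 12 arrays.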
